A study of Canis lupus familiaris with 8 samples.

Results

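Star miRNAs are the strands of a miRNA hairpin that older naming marked with an asterisk because the opposite strand was found more often. The names of the array that end in an asterisk and carry a miR number below 1000 were taken, with the let-7 star names and without miR-144*. They comprised 268 of the 1224 miRNA names on the array, of which 267 were murine listings and 1 was canine. The rule reads the names and no measured value, although it was set with earlier results of these data known. Serum RNA came from 8 client-owned, purebred Doberman Pinschers, 4 with dilated cardiomyopathy (DCM) in the occult stage and 4 healthy controls. All DCM dogs were under treatment with pimobendan, an ACE inhibitor and either sotalol or amiodarone when blood was drawn, whereas the control dogs had no sign of systemic or cardiac disease. The study states that the owner of the dog it called DoCM8 did not give the medication consistently. The deposited description gives an age of 7 to 11 years for all dogs, although the published description places a DCM dog below that range. Each dog contributed 1 one-colour array, labelled DoCM5 to DoCM8 in the DCM group and Con1 to Con4 in the control group.

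A miRNA hairpin is cut by Drosha in the nucleus and by Dicer in the cytoplasm, which leaves a short duplex. An Argonaute protein keeps one strand, the guide, to recognise target mRNAs, and the other strand, the passenger or star, is mostly degraded. Some star strands are retained and act on targets of their own, and in serum both strands are found in vesicles and in complexes with protein or lipoprotein. No table of miRNA sequences was used here, so the members are given by name. By the spelling of the hairpin name alone, 234 of the 268 star names had a canine miRNA gene in the RefSeq annotation of the dog assembly UU_Cfam_GSD_1.0. Above background were 22 of these 234, or 9.4%, and 4 of the 34 names without such a gene, or 11.8%.

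Each name was covered by 40 features made of 2 to 4 probes, and no feature was saturated. The Feature Extraction flag for a signal well above background (WABG) was set on 10817 to 12934 features per array in the DCM group and on 11551 to 14000 in the control group. The number of arrays, 8, limited the precision of every comparison. The array labelled DoCM5 stood apart from the other 7 by its brightness, with a median signal of 68.0 units over all names above background against 23.5 to 56.8 units on the others. The study left out the array it called DoCM8 and described the signals of that sample as intensified, while the array labelled DoCM8 here had 33.9 units. Each comparison was therefore made without DoCM8, over all 8 arrays, and without DoCM5. The study listed 22 names with an unadjusted p under 0.05 and a fold change over 1.5. By limma, 22 of 438 names passed these limits here without DoCM5 and 9 without DoCM8. Whether the labels match the published ones was not tested. On the slide all DCM arrays lay in one row and all control arrays in the other, and row and group cannot be told apart. Among lists of blood cell and organ miRNAs, all 4 erythrocyte names, 8 leukocyte names and 7 platelet names were above background. The summed erythrocyte signal ranged from 93090 to 247500 units in the DCM group, with the highest value on DoCM5, and from 88170 to 179200 units in the control group. On the normalized scale used for the comparisons, the mean level of the erythrocyte names was 11.81 to 12.32 on the DCM arrays and 11.12 to 11.79 on the control arrays. These ranges nearly touched, and 2.74% of all 438 names taken singly separated the groups. The erythrocyte names included both the canine and the murine listing of miR-144, and the study listed the murine one as higher in DCM. The mean level of the leukocyte names was 7.26 to 7.51 in the DCM group and 7.01 to 7.38 in the control group, and that of the platelet names 8.49 to 8.85 and 8.41 to 8.71, so both overlapped. In the heart list 3 of 6 names were above background, cfa-miR-133a, cfa-miR-208a and cfa-miR-208b were not, and the summed signal was 97.9 to 247 units in the DCM group and 73.9 to 253 units in the control group. The part of these cells in the results was not tested.

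Few star names gave a signal above background in the serum. A name was counted as above background when 50% or more of its features carried the WABG flag on 2 or more arrays within a group, and 26 of the 268 star names, or 9.7%, met this, against 26.8% of all 1224 names. All 26 were murine listings. The study allows that some murine probes may not match canine miRNAs, and what these probes bound in dog RNA was not tested. By the same rule 66 of 207 murine names without a star and with a number below 1000 were above background, or 31.9%. Canine names without a star reached 45.5%, and the 52 other star names, with numbers from 1000 on or miR-144*, reached 23.1%. The count of star names above background was 20 to 27 per array in the DCM group and 21 to 31 in the control group, and the groups overlapped. On all 8 arrays, 15 of the 26 were above background, and 6 of these, miR-140*, miR-150*, miR-211*, miR-22*, miR-328* and miR-486*, had every feature flagged on every array.

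The limit of detection ran through a group of dim names. Just inside it lay miR-669c*, with 33.2% of its features flagged on average over the 8 arrays, miR-16-2* with 36.4% and miR-18a* with 45.5%. Just outside lay miR-344c* with 36.7%, miR-15b* with 32.1% and miR-135b* with 29.9%, each above background on 1 array of a group at most. miR-669c* was counted through 2 DCM arrays and 0 control arrays, and miR-16-2* through 2 control arrays and 1 DCM array. A further 22 star names had at least 1 feature with the WABG flag on 2 arrays of a group and entered the comparisons of the groups, which covered 48 star names in all. For 4 of the 22, miR-26b*, miR-322*, miR-351* and miR-741*, this held only when measurements marked as outliers were counted, which the feature filter did and the detection rule did not. Of the 48 names, 7 rested on 5 or fewer features and 4 of these on a single feature. The remaining 220 star names had no feature that passed.

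The brightest star name was miR-211*, from a hairpin in an intron of TRPM1, a melanocyte gene. Its signal was 391, 583, 184 and 308 units on DoCM5 to DoCM8 and 661, 350, 839 and 271 units on Con1 to Con4. DoCM7 was the lowest and Con3 the highest array, and the groups overlapped. miR-140*, whose hairpin is best known from cartilage, gave 514, 191, 101 and 176 units in the DCM group. In the control group it gave 246, 125, 350 and 149 units. Here DoCM5 was the brightest array, and the others of both groups were intermixed. miR-486*, from an erythroid and muscle hairpin, gave 371, 177, 124 and 156 units in the DCM group and 245, 148, 272 and 212 units in the control group. It too was brightest on DoCM5.

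Of the 26 names, 3 had a median signal of 100 units or more over the 8 arrays and 16 had one below 20 units. let-7d*, the opposite strand of a growth-restraining let-7 miRNA, gave 276, 64.5, 40.8 and 60.1 units in the DCM group and 96.5, 53.1, 96.5 and 68.3 units in the control group. DoCM5 was far above all others, and the other 3 DCM arrays lay around the lower part of the control range. miR-149* gave 57.2, 97.6, 63.1 and 95.5 units in the DCM group and 161, 73.3, 138 and 560 units in the control group. Con4 was far above all others, Con1 and Con3 were above the DCM arrays, and Con2 lay among them. Among the names of middle brightness, miR-135a-1* ranged from 30.5 to 145 units, miR-328* from 21.0 to 86.0 units and miR-677* from 10.1 to 82.4 units over the 8 arrays. miR-150*, the opposite strand of a lymphocyte miRNA, ranged from 25.2 to 37.9 units, and on the normalized scale from 3.70 to 5.56. miR-22*, from a hairpin that is abundant in heart and red cells, ranged from 14.7 to 23.3 units. The dimmest of the 26 on the normalized scale was miR-350*, with 5.39 to 11.4 units.

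**Figure D1:**
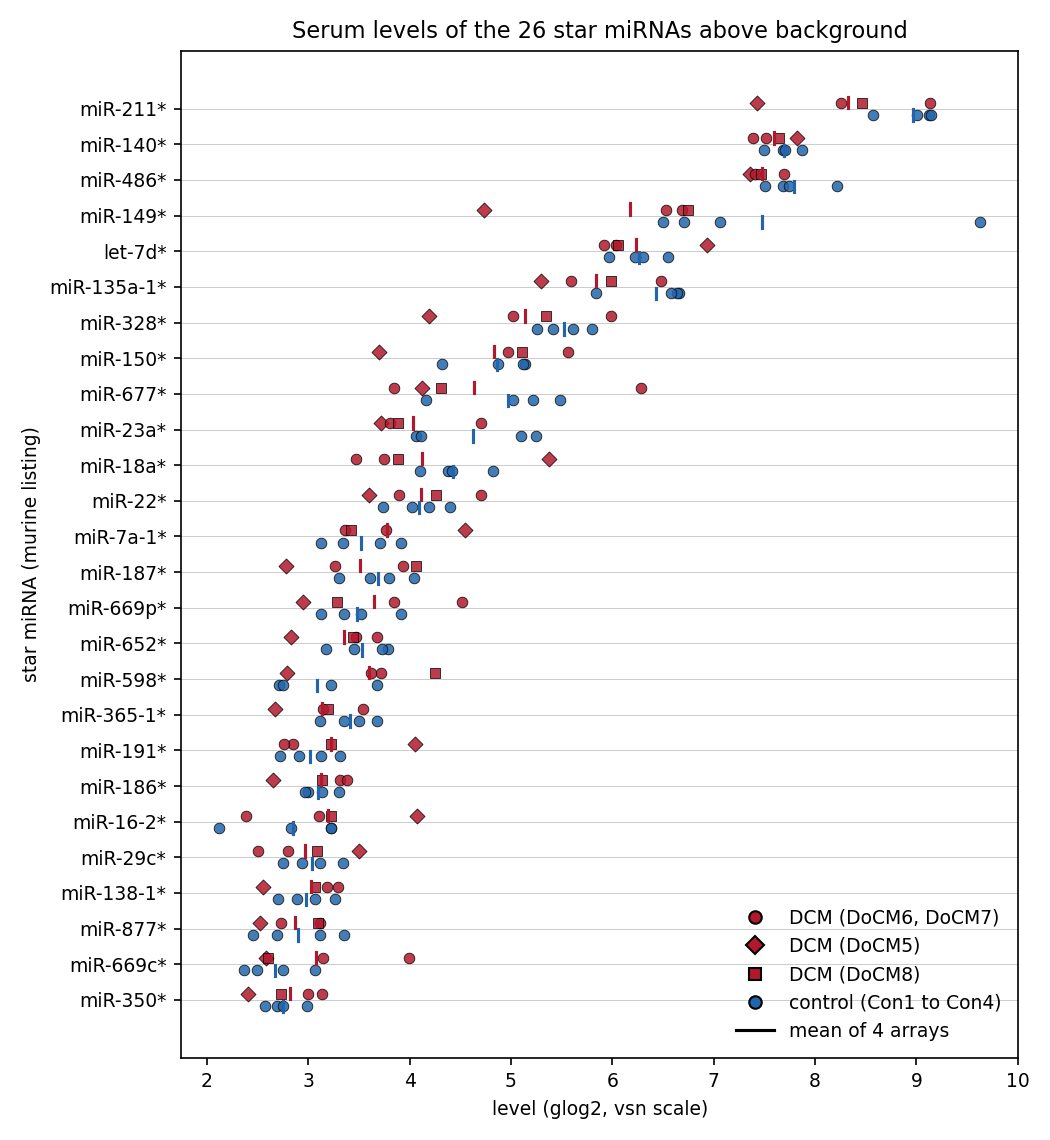
Level of each of the 26 star miRNAs above background on each of the 8 arrays, on the normalized glog2 scale (x axis), with 1 row per name (y axis). Red points are DCM arrays, with DoCM5 as a diamond and DoCM8 as a square, blue points are control arrays, and vertical ticks are group means of 4 arrays. The groups overlap in every row, and the mean over 8 arrays runs from miR-211* at the top to miR-350* at the bottom.

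For the comparisons, the mean signal of a name was calibrated between arrays by vsn and expressed as glog2. This is a logarithm to base 2 that flattens near 0, so its differences for dim names need not equal log2 ratios of the signals. Signals of different probes also depend on how well each probe binds, so an order of names is an order of signals. On this scale miR-211* ranked 45 of the 328 names above background, miR-140* 73, miR-486* 74, miR-149* 98 and miR-350* 314. The median level of the 26 star names was 3.62, against 5.52 for murine names without a star below 1000 and 5.54 for canine names without a star.

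The probes of a star name did not all carry signal. Of the 26 names, 17 had 2 probes and 9 had 4 probes, and 6 names had at least 1 probe without a single feature that passed. In miR-18a*, a member of the miR-17-92 cluster with 4 probes, the median signals over 8 arrays were 24.4, 14.4, 1.42 and 0.0588 units, so its level rested on 20 of its 40 features. In miR-16-2*, whose guide is abundant in red cells, one probe gave 9.92 units and the other 0.0584 units. let-7d*, miR-23a*, miR-191* and miR-669c* were the other 4 names with a probe that did not pass. In these names the probes that passed carried the whole level.

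Other names were even across their probes. In 11 of the 26 names the brightest probe was less than 1.5 times the dimmest. The 4 probes of miR-669p*, a member of the rodent Sfmbt2 cluster, had medians of 13.3, 13.2, 12.6 and 12.4 units. The 2 probes of miR-211* had medians of 378 and 363 units. Probes of a bright name could also differ widely, as in miR-149* with 178 and 15.2 units and in miR-135a-1* with 174, 112, 15.7 and 8.38 units. The bright value of miR-149* on Con4 appeared in both probes, with 979 and 141 units against 109 to 305 and 9.83 to 24.8 units on the other 7 arrays.

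**Figure D2:**
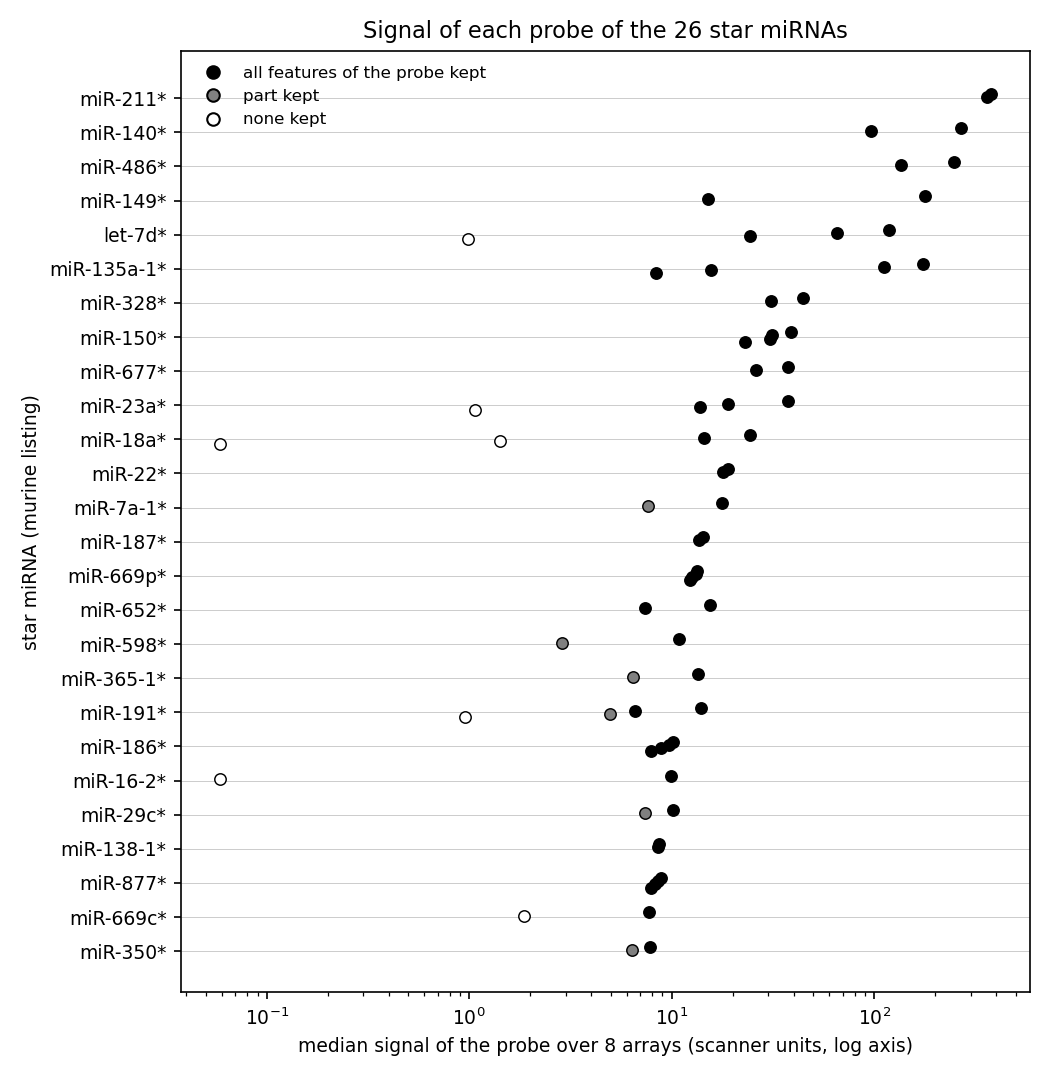
Median signal over 8 arrays of each probe (x axis, scanner units, log axis) of the 26 star miRNAs (y axis). Black points are probes with all features passing the background filter, grey points probes with part of them and white points probes with none, and the 4 probes of miR-18a* span from 0.0588 to 24.4 units while those of miR-669p* lie between 12.4 and 13.3 units.

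The level of a star strand was set against that of the name without the star where the array had it. In the murine listing 141 star names had such a guide. Where the guide was above background, in 52 pairs, the star was too in 7, or 13.5%, and where it was not, in 89 pairs, the star was above background in 3, or 3.37%. With the canine listing of the guide used where the murine one was absent, 249 star names had a guide, 120 of these guides were above background, and 13 of their stars were, or 10.8%. Of 129 stars without a detected guide, 7 were above background, or 5.43%. With a guide above background in either listing, a setting chosen after seeing the data, the shares were 14 of 123, or 11.4%, and 6 of 126, or 4.76%. These 6 were miR-149*, miR-187*, miR-211*, miR-328*, miR-598* and miR-677*, of which miR-149*, miR-211*, miR-328* and miR-677* were among the 12 brightest. The median signal of cfa-miR-211 over all features was 1.26 units beside 370 units for miR-211*, that of cfa-miR-149 was 2.23 units beside 96.6 units for miR-149*, and that of mmu-miR-677 was below 0 beside 31.8 units for miR-677*.

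Stars of bright guides were mostly not above background. Of 23 star names whose guide, in the murine listing where present, had a median signal of at least 500 units, 2 were above background, or 8.7%, and 17 had no feature that passed. With the brighter listing of each guide it was 3 of 25, or 12%, so the share lay on either side of the 9.7% of all star names. cfa-miR-16, an erythrocyte miRNA, had 8420 units, while miR-16-2* had 5.03 units and miR-16-1* 0.0383 units over all their features. mmu-miR-223, a myeloid miRNA, had 3698 units and mmu-miR-19b, of the miR-17-92 cluster, 2505 units, and none of miR-223*, miR-19b-1* and miR-19b-2* had a feature that passed.

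In the 7 murine pairs with both strands above background, the star lay below the guide in 5 and above it in 2, with a median difference of -2.44 on the glog2 scale. miR-23a*, of the miR-23a/27a/24-2 cluster, was lowest at -6.49 ± 0.675 (SD, n = 8 arrays), which is 89.7-fold below its guide on the glog2 scale and need not equal the ratio of the signals. miR-350* followed at -3.79 ± 0.663 and miR-18a* at -2.58 ± 0.461. miR-652* differed by -2.44 ± 0.640 and miR-877*, from a short intron of ABCF1, by -0.97 ± 0.307. let-7d* was level with its guide at 0.28 ± 0.271, and on Con3 it was the lower of the pair. miR-140* was above the murine guide on all 8 arrays, by 2.09 ± 0.241, which is 4.25-fold on the glog2 scale.

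The listings of a guide differed in signal, and for miR-140 the sign of the star minus guide difference changed with them. A canine name without a star does not state its arm, and sequences were not compared. Whether a canine listing used as a guide is the guide or the star strand was therefore not settled. cfa-miR-140 had a median signal of 360 units and mmu-miR-140 of 48.6 units, and against the canine listing miR-140* was lower, at -0.96 ± 0.0791 on the glog2 scale. cfa-miR-191 gave 2227 units, and miR-191* differed from it by -8.25, while mmu-miR-191 was not above background, with 1.98 units, and gives no order. The opposite held for miR-350 and miR-652, where the murine listing gave 92.3 and 51.9 units and the canine listing 4.80 and 1.46 units. Against cfa-miR-350 the difference of miR-350* was -0.39 ± 0.781, and the star was higher on 2 of 8 arrays. In miR-18a* and miR-23a* both listings put the star below the guide. With the canine guide used where both listings exist, the median difference was -0.97. Over 13 pairs, with the canine guide used where the murine one was absent, the median difference was -3.79 and the star was above its guide in 2 pairs, let-7d* and miR-140*. The lowest of the 13 was miR-16-2*, at -10.21 against cfa-miR-16.

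**Figure D3:**
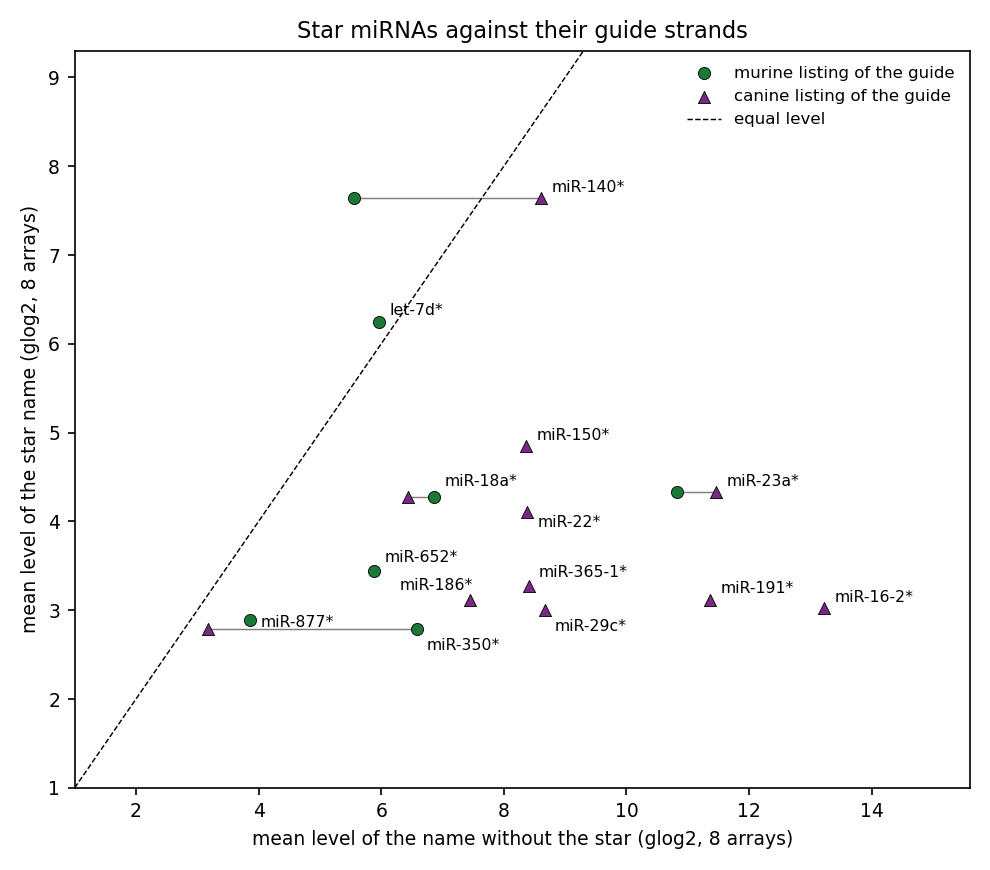
Mean glog2 level over 8 arrays of a star miRNA (y axis) against that of the name without the star (x axis), for star names above background whose guide was above background too. Circles use the murine and triangles the canine listing of the guide, grey lines join both listings of one guide, and the dashed line marks equal levels. miR-140* lies on opposite sides of the dashed line with its 2 listings, and let-7d* lies near the line. Whether a canine listing is the guide strand was not checked by sequence.

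The comparison of DCM with control asked whether any star strand in serum differed with the disease. In serum, fewer cells that release RNA and less RNA per cell cannot be told apart. Over 7 arrays without DoCM8, 0 of the 48 star names passed an unadjusted p under 0.05 with a fold change over 1.5 in limma, where 2.05% of all 438 names tested did. None of the 48 had an unadjusted p under 0.05, and the smallest was 0.0590. By exact two-sided permutation 1 of 48 reached the smallest p the design allows, 0.0286, as did 2.97% of all names. Over all 8 arrays 0 of 48 passed, against 3.88% of all names, and the smallest p of a star name was 0.0651. Without DoCM5, 2 of 48 passed, miR-18a* and miR-598*, against 5.02% of all names, and 4 had an unadjusted p under 0.05, as did 6.62% of all names, while 1 of 48 reached the smallest permutation p, as did 3.42% of all names. After Benjamini-Hochberg adjustment over 438 names 0 star names passed in each of these 3 fits, as did 0.0% of all names. Over the 7 arrays without DoCM8, the median log2 fold change of the 48 names was 0.02, as it was over all 438 names, and 25 were positive and 23 negative. The 95% interval of a detected star name reached a median of 0.818 to either side of its estimate. Leaving out 1 more of the 7 arrays gave 0 to 5 names past both limits, the 5 without DoCM6, where 7.31% of all names passed. Besides miR-149*, these were miR-211* at -1.12, miR-677* at -0.99, miR-135a-1* at -0.98 and miR-328* at -0.91, and in each of these DoCM6 was the highest DCM array. Without DoCM5 as well as DoCM8, 3 star names passed, where 6.85% of all names did. They were miR-18a*, miR-93* and miR-669c*, of which the last had been counted as above background only through DoCM6 and DoCM7, the DCM arrays of that fit, so its call gives no support.

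miR-149* had the largest difference of all 438 names in the fit without DoCM8. Its glog2 level was 4.74, 6.53, 6.69 and 6.75 on DoCM5 to DoCM8 and 7.06, 6.71, 6.50 and 9.63 on Con1 to Con4. DoCM5 was the lowest and Con4 the highest array, and the other 6 lay within a narrow band. The log2 fold change was -1.49 with a standard error of 0.71 (limma p = 0.0590, adjusted p = 0.99, exact permutation p = 0.229), and it was -1.30 over all 8 arrays and -0.82 without DoCM5. When 1 more array was left out, it passed both limits without DoCM6, DoCM7, Con2 or Con3, at -1.75 to -1.84, and was -0.77 without Con4 and -0.87 without DoCM5.

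The study listed miR-18a* as lower in DCM at the same unadjusted limits, but not after adjustment. In the fits made here miR-18a*, whose cluster is known for roles in cell growth, passed both limits when DoCM5 was left out. It met the detection rule through DoCM5 and DoCM6 of the DCM arrays, each with 50% of its features, and without DoCM5 it would not count as above background. Its level was 5.38, 3.75, 3.48 and 3.89 on DoCM5 to DoCM8 and 4.38, 4.10, 4.41 and 4.82 on Con1 to Con4. DoCM5 was above all control arrays, whereas DoCM6 to DoCM8 were below all of them. The log2 fold change was -0.23 ± 0.45 (SE) without DoCM8, -0.31 ± 0.40 over all 8 arrays and -0.72 ± 0.24 without DoCM5, where limma gave p = 0.0137, an adjusted p of 0.54 and the exact permutation p was 0.0571.

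miR-598* was the other name past both limits without DoCM5. Its level was 2.80, 3.72, 3.62 and 4.25 in the DCM group and 2.71, 3.68, 2.75 and 3.22 in the control group. DoCM8 was the highest array and the groups overlapped. The log2 fold change was 0.29 ± 0.38 (SE) without DoCM8 and 0.77 ± 0.30 without DoCM5 (limma p = 0.0285, adjusted p = 0.66, exact permutation p = 0.0857). In that fit the lowest DCM array still lay below Con2. Only 1 of the 20 features of its dimmer probe passed the background filter.

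Other bright names did not pass the limits in the 3 fits. miR-211* differed by -0.69 ± 0.41 without DoCM8 and by -0.34 ± 0.27 without DoCM5, miR-135a-1* by -0.64 ± 0.38 and -0.41 ± 0.30. miR-23a* differed by -0.55 ± 0.42 and -0.50 ± 0.38, and it was lower in the DCM array in 4 of 4 slide columns, each of which held 1 array of either group, as were 4.27% of the 328 names above background. miR-598* was higher in 4 of 4 columns, as were 3.96% of these names. For miR-140* the 95% interval without DoCM8 ran from -0.78 to 0.56, and for let-7d* from -0.74 to 0.80. A p that misses the limit does not show that the groups were equal.

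**Figure D4:**
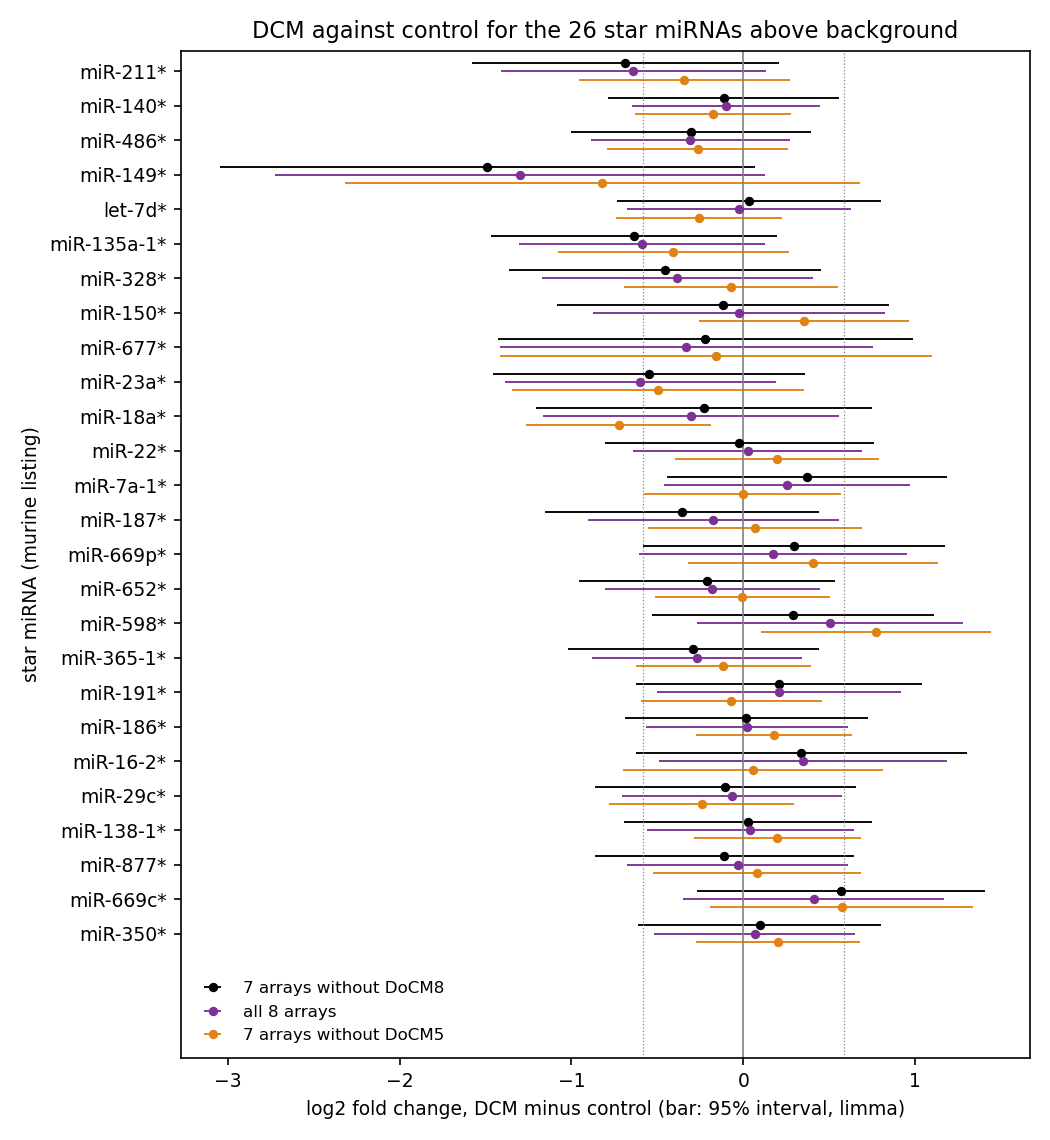
Log2 fold change, DCM minus control (x axis), of the 26 star miRNAs above background (y axis) in 3 sets of arrays, with the 95% interval of limma as bars and dotted lines at a fold change of 1.5. Intervals that exclude 0 belong to miR-18a* and miR-598* in the fit without DoCM5.

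Groups of star names were described by hairpin family. Of 14 star names of the miR-17-92 cluster and its paralogs, miR-18a* was above background, and miR-106b*, miR-92a-2* and miR-93* were tested as dim names. Of the 4 tested, 1 passed both limits without DoCM5, where 5.02% of all names did, with a median log2 fold change of -0.50 beside 0.01 over all names in that fit, and 0 passed in the other 2 fits. Among 14 star names of blood cell miRNAs, miR-486*, miR-150* and miR-191* were above background, and 0 of 4 tested passed in the 3 fits, beside 2.05%, 3.88% and 5.02% of all names. The median log2 fold change of these 4 was 0.04 without DoCM8, beside 0.02 over all names, and -0.05 without DoCM5, beside 0.01. The part of the normalized erythrocyte level in these values was not tested.

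Further families were represented by single names. let-7d* was the one of 11 let-7 and miR-98 star names above background, with a log2 fold change of 0.03 ± 0.35 without DoCM8 and -0.26 ± 0.21 without DoCM5. In the same order of fits, miR-16-2*, the one of 7 in the miR-15/16 family, had 0.34 ± 0.44 and 0.06 ± 0.33. miR-29c*, whose guide family targets collagens, was the one of 9 in its list, with -0.10 ± 0.35 and -0.24 ± 0.24. The sign of let-7d* differed between the fits. miR-22* was the one of 11 heart and muscle star names, with -0.02 ± 0.36 and 0.20 ± 0.26, so its sign differed too. miR-652* was the one of 4 of its X-linked list, with -0.21 ± 0.34 and -0.01 ± 0.23. Of 13 star names of the rodent Sfmbt2 cluster, miR-669p* and miR-669c* were above background. The first had 0.30 ± 0.40 and 0.41 ± 0.32, and the second, counted through DCM arrays alone, 0.57 ± 0.39 and 0.57 ± 0.34. None of 5 miR-30 star names, 29 of the DLK1-DIO3 imprinted cluster and 8 epithelial ones was above background. The other 14 star names above background, miR-211*, miR-140* and miR-149* among them, belonged to none of the lists. In the lists other than miR-17-92, 0 of the tested star names passed both limits in any of the 3 fits, in which 2.05%, 3.88% and 5.02% of all names did.

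One of the 48 star names separated the groups over 8 arrays, where 2.74% of all 438 names did. It was miR-330*, which was not above background by the rule and was named after its values were seen. Its glog2 levels ranged from 2.69 to 2.79 in the DCM group and from 2.04 to 2.44 in the control group. The log2 fold change was 0.50 ± 0.24 (SE) over 8 arrays, with limma p = 0.0651, adjusted p = 0.96 and an exact permutation p of 0.0286, the smallest the design allows. Its fold change of 1.41 did not reach the limit of 1.5.

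The difference between star and guide was also compared between the groups, in a table of 18 murine pairs of which 16 were members. Without DoCM8, 1 of 16 passed both limits, against 5.56% of the 18 pairs, and it was miR-18a*. The star minus guide difference was -2.603, -2.936, -3.231 and -2.994 on DoCM5 to DoCM8 and -2.347, -1.964, -2.573 and -2.003 on Con1 to Con4. All 4 DCM arrays were below all 4 control arrays, with DoCM5 and Con3 next to each other, and 5.56% of the 18 pairs separated the groups in this way. The change in the difference was -0.70 ± 0.31 (SE) on the log2 scale without DoCM8 (limma p = 0.0474, adjusted p = 0.74, exact permutation p = 0.0571). Over all 8 arrays it was -0.72 ± 0.25 (limma p = 0.0181, adjusted p = 0.33, exact permutation p = 0.0286), again with 5.56% of pairs passing. Without DoCM5 it was -0.83 ± 0.22 (limma p = 0.00607, adjusted p = 0.055, exact permutation p = 0.0286), where 11.1% of pairs passed. When 1 more array was left out besides DoCM8, no pair passed without DoCM6, DoCM7, Con1, Con2 or Con4. No pair passed with quantile normalization or with the median over features either.

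The same direction was found with the canine listing of the guide. Against cfa-miR-18a the difference was -2.10, -2.29, -2.70 and -2.80 in the DCM group and -1.93, -1.56, -2.11 and -1.77 in the control group, so DoCM5 and Con3 overlapped. The change was -0.52 ± 0.25 without DoCM8, which did not pass (limma adjusted p = 0.97), and -0.63 ± 0.23 over 8 arrays, which passed both limits (adjusted p = 0.74), where 3.33% of 30 pairs did. Without DoCM5 a second pair of the murine listing passed, miR-92a-2*, which was not above background by the rule. Its difference from mmu-miR-92a changed by 0.86 ± 0.22 (limma p = 0.00495, adjusted p = 0.055, exact permutation p = 0.0286), opposite in sign to miR-18a*, and by 0.35 ± 0.44 without DoCM8.

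The array DoCM5 divided the star names. Before normalization, the signal on DoCM5 was 1.58 times the median of the other 7 arrays in the median of all 328 names above background, and at least 2 times in 44.8% of them. Among the 26 star names it was at least 2 times in 8 names, or 30.8%, and below 1 in 12. The lower quartile of the ratio was 0.839 for the star names and 0.955 over all 328 names, so ratios below 1 were not confined to star names. The 8 were miR-18a* at 5.88, miR-7a-1* at 4.44, let-7d* at 4.28, miR-191* at 3.95, miR-16-2* at 3.57, miR-140* at 2.93, miR-29c* at 2.41 and miR-486* at 2.09. Near or below 1 lay miR-211* at 1.12, miR-328* at 1.01, miR-150* at 0.786, miR-187* at 0.603 and miR-149* at 0.586.

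A low ratio of the star did not go with a low ratio of the guide. Among the 18 star names with a ratio below 2, 8 had a detected guide, and 7 of these guides had a ratio of at least 2. The guide cfa-miR-365 was at 5.81 while miR-365-1* was at 0.780, mmu-miR-652 at 5.00 while miR-652* was at 0.910, and mmu-miR-350 at 4.60 while miR-350* was at 0.744. Of the 8 star names at 2 or more, 5 had a detected guide, and 4 of these guides were also at 2 or more. Among them, mmu-miR-18a at 5.47 and mmu-let-7d at 5.09 had ratios near those of their stars, at 5.88 and 4.28. The guide below 2 was cfa-miR-29c at 1.905. Murine names from 1000 on without a star had a median ratio of 0.929, with 3.33% of them at 2 or more, and canine names without a star had 2.89 and 66.4%.

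The same ratio was taken on each of the other 7 arrays. Its median was 0.520 to 1.86 for the 8 names and 0.752 to 1.62 for the 18 names, and on DoCM5, which had divided them, 3.76 and 0.918.

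**Figure D5:**
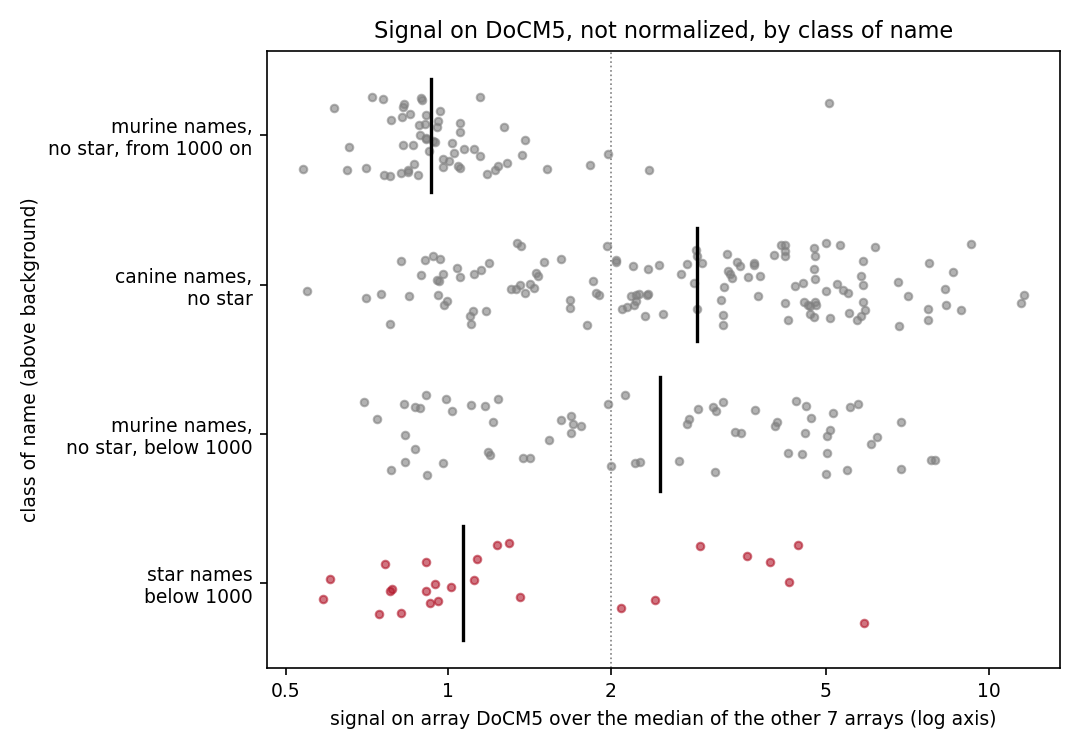
Signal on the array DoCM5 divided by the median signal of the other 7 arrays, before normalization (x axis, log axis), for names above background in 4 classes (y axis). Each point is a name, black ticks are medians and the dotted line marks a ratio of 2. Of the 26 star names, 8 lie at 2 or more and 18 below, while the median is 2.89 for canine names without a star and 0.929 for murine names from 1000 on without a star.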

How the data were processed

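Total serum RNA was labelled with Cy3 and hybridized to a custom one-colour Agilent array of canine and murine miRBase names. The authors deposited the scanner output, an intensity per feature with background subtracted and not normalized between arrays, and a table identical to it. The submitters' processing notes name Agilent Feature Extraction 10.7.3.1. Groups and array labels came from the sample titles; the labels may not match the published ones, so arrays are named by label. The members, the lists and the tests were chosen with earlier results of these data known.

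Control features and flagged outliers were left out, except that the feature filter counted the outliers. A feature was kept when it was WABG on at least 2 arrays of a group (13423 features, 438 names). Mean intensities per name were calibrated by an own implementation of vsn (quantile 0.9, 5 slices, 7 iterations) and compared with limma 3.58.1 in R 4.3.3, taking as limits an unadjusted p of 0.05 and a 1.5-fold change. Benjamini-Hochberg adjustment ran over all names tested. Star minus guide differences were fitted over the table of all pairs. Exact permutation tests were two-sided, with 0.0286 as the smallest p for 3 against 4 and for 4 against 4 arrays. Each array is 1 dog. The fits and the calibration were tested on simulated data.

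Named were the 12 brightest star names above background, those past the limits in any of the 3 array sets, the 3 highest and 3 lowest star minus guide differences and every pair past the limits, 3 names on either side of the detection limit, miR-18a*, and the brightest 2 of each list. Other names are given with a value as part of a count. Lists were families and clusters of hairpins; alternatives covered the arrays, the normalization, the filter, the averaging, the slide column and the listing of the guide. Figures were drawn with matplotlib 3.10.9.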

Additional observations from a re-analysis of the deposited data

Results flagged for a closer look

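In groups of 4 arrays, 6 values lay farther from the other 3 than Dixon's 95% limit for the gap as a share of the range. Named star levels, star minus guide differences and counts per array gave 62 such groups, and chance alone singles out about 1 in 20, or 3.1 here. Of the 6, 2 concerned the level on DoCM5: let-7d* was high there at 6.93, against 5.92 to 6.06 on the other DCM arrays, and miR-149* was low at 4.74, against 6.53 to 6.75. The difference of miR-652* from its guide was also apart on DoCM5, at -3.88 against -2.15 to -1.98. miR-23a* was high on DoCM6 at 4.71, against 3.72 to 3.88 on the other DCM arrays. In the control group, miR-135a-1* was low on Con4 at 5.84, against 6.58 to 6.65, and the difference of miR-350* from its guide was apart on Con2 at -2.96, against -3.98 to -3.85. The value of miR-149* on Con4, 9.63, was not among the 6.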

How the results depend on the processing

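No paired analysis was possible because the labels number the DCM dogs 5 to 8 and the control dogs 1 to 4, so no numbers are shared. Columns of the slide, each with 1 DCM and 1 control array, served as a technical block only. The count of 26 star names above background was 24 to 26 with 1 array left out, 21 to 35 under the other limits on features and arrays, and 47 when 1 feature was enough. The count past both limits, 0 over 7 arrays, was 0 to 5 with 1 of the 7 arrays left out, the 5 without DoCM6. It was 2 without DoCM5 (5.02% of all names), 3 with scaling to the 75th percentile of detected miRNAs (5.25%), 1 with the median over features (miR-149*, 3.42%), 1 with the slide column as a block (miR-149*, 3.65%) and 8 of 268 without a filter (3.35%), and 0 under the other settings. With the block, miR-149* changed by -1.30 (limma adjusted p = 0.95), and within the 4 columns DCM minus control was -2.33, -0.17, 0.18 and -2.88. Past the adjusted limit the count was 0 under all settings run. The median log2 fold change of star names, 0.02, moved to -0.32 with the 75th percentile of detected miRNAs, where that of all names moved to -0.25 (0.11 with the percentile of all miRNAs), and ranged from -0.06 to 0.05 with 1 array left out. The median star minus guide difference, -2.44, was -2.51 to -2.24 with 1 array left out, -0.97 with the canine guide where both listings exist, -3.68 over all pairs that passed the filter and -3.79 with the canine guide where the murine one is absent. The last was chosen after seeing the data, as were both uses of the canine listing in the test of pairs. The count of pairs that differed, 1, was 0 to 2 with 1 array left out (0 without DoCM6, DoCM7, Con1, Con2 or Con4), 2 without DoCM5, 0 with quantile normalization, 0 with the median over features and 0 with the canine guide used first. The causes were not tested. Among log2 fold changes of 23 named star names under alternatives, 381 kept their direction and their side of the limits, 16 came past the limits in the same direction, and 59 changed sign without passing. Low signal over background limits the dim names: 16 of the 26 had a median below 20 units.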
